A study of Mus musculus with 6 samples.

Results

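Neuropeptide precursor genes encode larger proteins that neurons cut into short secreted signalling peptides. The 10 genes described here, Npy, Sst, Cck, Penk, Tac1, Pdyn, Nts, Gal, Trh and Cartpt, were chosen by symbol, and each matched a single row among 55416 genes in the deposited table. They were placed in 3 classes by where their peptides are best known: Npy, Sst and Cck in cortical interneurons, Penk, Tac1 and Pdyn in projection neurons of the striatum, and Nts, Gal, Trh and Cartpt in the hypothalamus, although each is made at more than a single site. Npy, Tac1 and Trh lie on chromosome 6 and the others each on a chromosome of their own. The tissue was the embryonic mouse ganglionic eminences at E13.5, swellings of the ventral forebrain that generate striatal neurons and cortical interneurons. The groups were 3 libraries from embryos with a double knockout of Dlx1 and Dlx2, a pair of linked homeobox genes, and 3 from wild-type littermates. How the alleles were made, the strain and whether tissue was pooled are not given in the sources used here.

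A neuropeptide precursor enters the secretory pathway, where convertases such as those encoded by Pcsk1 and Pcsk2 cut it at pairs of basic residues, the carboxypeptidase encoded by Cpe trims the ends and the enzyme encoded by Pam amidates many of the products. The peptides are stored in dense-core granules and act on G protein-coupled receptors. In the ventral forebrain, somatostatin and neuropeptide Y mark classes of GABAergic interneurons, substance P (from Tac1) and dynorphin (from Pdyn) mark the direct-pathway striatal neurons, and enkephalin (from Penk) marks the indirect-pathway ones. Most of these systems mature after mid-gestation.

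Libraries held 56618090 to 70114173 counts, of which 5012 to 6585 came from the 10 genes, so counting error is small for Sst and large for Cartpt. A count of 3 corresponded to 0.0428 to 0.053 CPM (counts per 1000000 counts of the library), for counting error only. The deleted genes followed the labels: Dlx1 was at 18.6% and Dlx2 at 2.94% of their wild-type means, and exons of Dlx1as overlap Dlx1 on the opposite strand. Y-linked transcripts were at 206.5 to 213.9 CPM in wild-type replicate 1 and double knockout replicates 2 and 3, and at most 0.168 CPM in the other libraries, so both patterns occurred in both genotypes. Double knockout replicate 3 differed at least 2-fold from the mean of the other libraries of its group for 97 of 16487 genes averaging at least 1 CPM, against 43 to 75 for the other 5 libraries. The labels do not say that replicates were separate embryos, so p-values measure the spread between these samples.

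All 10 genes were detected in every library and passed the filter on low counts. By the edgeR quasi-likelihood method, with p adjusted over 23628 genes by Benjamini-Hochberg, 4 of the 10 differed at an adjusted p under 0.05. Npy rose, and Sst, Penk and Tac1 fell. Over all tested genes 2.68% were called, 1.34% higher and 1.34% lower (317 and 317 genes, against 390 and 256 with total count scaling). The 3 and 3 libraries did not overlap for 5 of the 10 genes, the called 4 and Cck, against 19.5% of all tested genes. By class, 2 of 3 interneuron peptides, 2 of 3 striatal peptides and 0 of 4 hypothalamic peptides were called, with median log2 fold changes of -0.58, -1.38 and -0.22. None of the 4 hypothalamic genes had an unadjusted p under 0.05 in edgeR, and limma-voom called none of them. DESeq2 called none of Nts, Gal and Trh, and gave Cartpt no adjusted p. Over all 10 the median was -0.44, against -0.002 over all tested genes. Without double knockout replicate 3 the 4 genes were called as well, with log2 fold changes of 0.68 for Npy, -0.47 for Sst, -1.21 for Penk and -1.66 for Tac1. In bulk tissue, fewer cells of a type and less RNA per cell cannot be told apart.

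**Figure D1:**
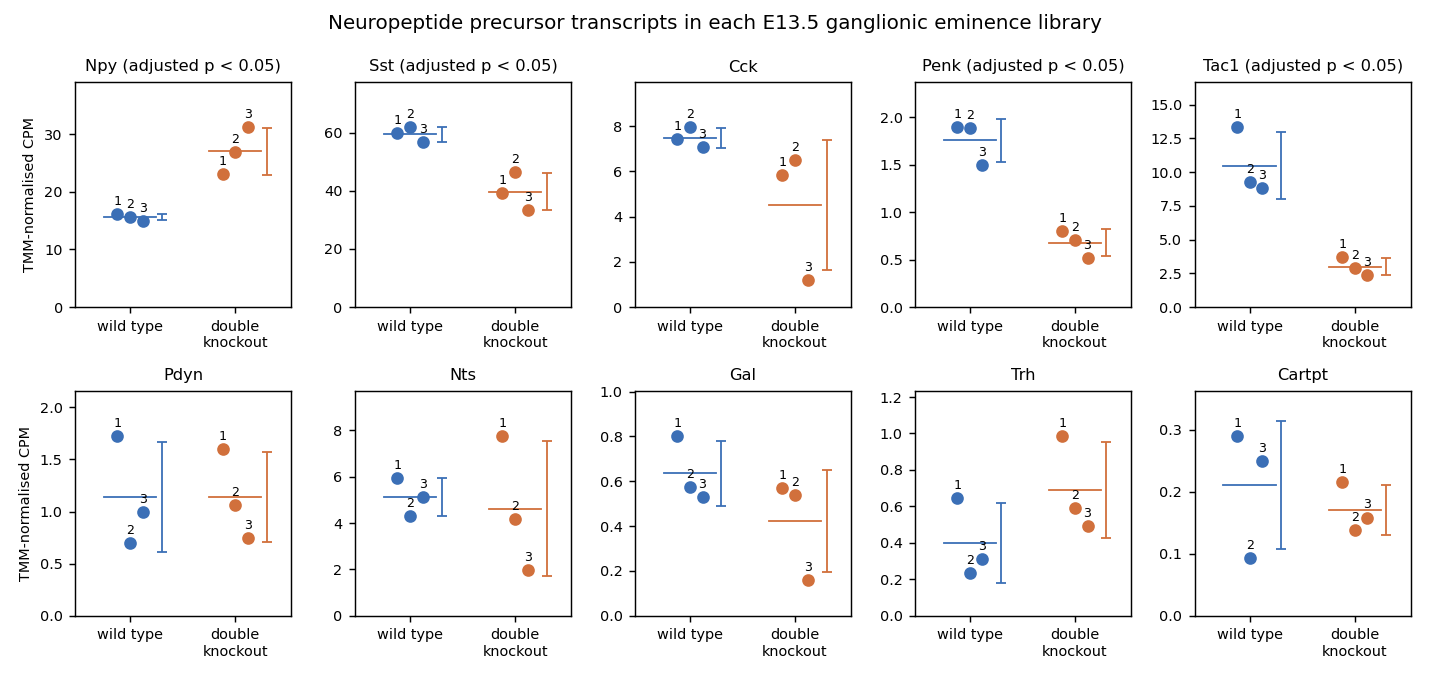
TMM-normalised CPM (vertical axis, from 0) of each precursor gene in the 3 wild-type (blue) and 3 double knockout (orange) libraries, with the replicate number above each point, the group mean as a line and the SD as a bar beside it. Npy is higher and Sst, Penk and Tac1 lower in all 3 double knockout libraries, while Cck, Nts and Gal, with Sst, Penk and Tac1, have their lowest value of all 6 libraries in double knockout replicate 3.

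Start regions of called genes are shown because these genes moved. The RefSeq promoter table (build GRCm38.p6) held 9 of the 10 members, all but Penk. Each table entry covers 300 bases around an annotated start. Each was searched on both strands for TAATTA, a core bound by many homeodomain factors including DLX proteins, and for TGACGTCA, the cAMP response element. TAATTA is in 5.29% of 32851 such windows and TGACGTCA in 1.79%, and the 2 motifs did not overlap in the members. Among the 9 members, TAATTA was found in that of Tac1 only, beginning 100 bases before the RefSeq start, and TGACGTCA in those of Sst, 48 bases before it, and Cartpt, 112 bases before it. The Tac1 site (chr6:7554949-7554978, plus strand) and the Sst site (chr16:23890874-23890903, minus strand) lie within exons of GENCODE M21, so 30 bases are given with the motif in capitals. For Npy, the 250 bases before the start (chr6:49822460-49822709, plus strand) are given whole. They hold neither motif and have 69.2% G and C.
Tac1: cgagggggcggcTAATTAaatattgagcag
Sst: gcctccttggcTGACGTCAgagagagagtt
Npy: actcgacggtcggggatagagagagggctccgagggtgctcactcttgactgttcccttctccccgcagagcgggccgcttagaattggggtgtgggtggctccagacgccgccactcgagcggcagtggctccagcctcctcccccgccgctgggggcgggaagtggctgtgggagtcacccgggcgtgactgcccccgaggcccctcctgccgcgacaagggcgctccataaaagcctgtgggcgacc
The matches are letters in these windows, and binding was not measured.

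Npy encodes neuropeptide Y, a peptide of interneurons and of feeding circuits. Npy was at 16.1, 15.7 and 14.98 CPM in wild-type libraries 1 to 3 and at 23, 26.9 and 31.2 CPM in double knockout libraries 1 to 3. The wild-type libraries lay within a narrow band and all 3 double knockout libraries lay above it. The means were 15.6 ± 0.568 CPM and 27.02 ± 4.09 CPM (SD, n = 3 each), a log2 fold change of 0.79 (standard error 0.1102) at an edgeR adjusted p of 0.00728. Npy was the only called precursor of the 10 that rose, and it passed the threshold in each of the 15 other settings that were run, with log2 fold changes from 0.68 to 0.898.

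Sst encodes somatostatin, an inhibitory peptide of interneurons that descend largely from the medial ganglionic eminence. Sst was at 59.7, 61.8 and 56.8 CPM in wild-type libraries 1 to 3 and at 39.3, 46.3 and 33.4 CPM in double knockout libraries 1 to 3. All 3 double knockout libraries lay below all 3 wild-type libraries, with replicate 3 lowest. The means were 59.4 ± 2.52 CPM and 39.7 ± 6.45 CPM (SD, n = 3 each), which left 66.7% of the wild-type level. The log2 fold change was -0.58 (standard error 0.107), at an edgeR adjusted p of 0.0261. The call was lost with Y-linked expression as a covariate (log2 fold change -0.59, edgeR adjusted p 0.0803) and in 4 of the 6 fits without a library, those without any 1 wild-type replicate and without double knockout replicate 1, with edgeR adjusted p of 0.0723 to 0.109. Among the libraries with Y-linked transcripts Sst was at 59.7 CPM in the wild type against 46.3 and 33.4 CPM, and among those without them at 61.8 and 56.8 against 39.3 CPM.

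Cck encodes cholecystokinin, a peptide of interneurons and of cortical and thalamic excitatory neurons. Cck was at 7.42, 7.95 and 7.06 CPM in wild-type libraries 1 to 3 and at 5.86, 6.49 and 1.21 CPM in double knockout libraries 1 to 3. The groups did not overlap, but double knockout replicate 3, with 84 reads, lay far below the other 5 libraries, which held 374 to 511 reads. The log2 fold change of -0.73 (standard error 0.4699) did not pass the test, at an edgeR adjusted p of 0.592 and a 95% interval of -1.81 to 0.34. Without double knockout replicate 3 it was -0.27, at an edgeR adjusted p of 0.327. Nr2f2, an interneuron marker of the caudal eminence, was also low in that library, at 114.8 CPM against 295 to 355.8 CPM in the others. Lhx6, of the medial eminence, was higher there than in the other double knockout libraries, at 125.4 against 88.9 and 75.5 CPM. Other interneuron markers went both ways in that comparison. Sp8 was lower, at 7.785 against 15.3 and 13.39 CPM, and Prox1 higher, at 194.4 against 162.6 and 151.7 CPM. Their part in the Cck value was not tested.

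Tac1 encodes the precursor of substance P and neurokinin A. It had the largest log2 fold change of the 10 genes, in size. Tac1 was at 13.3, 9.26 and 8.84 CPM in wild-type libraries 1 to 3 and at 3.68, 2.897 and 2.41 CPM in double knockout libraries 1 to 3. The highest double knockout library held less than the lowest wild-type library by a factor of more than 2 on this scale. The means were 10.5 ± 2.48 CPM and 2.995 ± 0.643 CPM (SD, n = 3 each), which left 28.6%, a log2 fold change of -1.81 (standard error 0.206) at an edgeR adjusted p of 0.00251. The call held in each of the 15 other settings run.

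Penk encodes proenkephalin, the precursor of the enkephalins, opioid peptides that act on delta and mu receptors. Penk was at 1.89, 1.88 and 1.496 CPM in wild-type libraries 1 to 3 and at 0.801, 0.711 and 0.519 CPM in double knockout libraries 1 to 3, from 111, 121 and 96 and 52, 41 and 36 reads. The groups were well apart although the gene was low in both. The means were 1.76 ± 0.226 CPM and 0.677 ± 0.144 CPM (SD, n = 3 each), a log2 fold change of -1.38 (standard error 0.221) at an edgeR adjusted p of 0.0143. Exons of A830012C17Rik overlap Penk on the opposite strand in GENCODE M21, so the Penk count is uncertain if counting ignored strand. The call was lost without wild-type replicate 1 or 2, where the edgeR adjusted p was 0.0641 or 0.0647.

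Pdyn encodes prodynorphin, the precursor of the dynorphins, which act on kappa receptors. Pdyn was at 1.72, 0.7001 and 0.998 CPM in wild-type libraries 1 to 3 and at 1.602, 1.06 and 0.7496 CPM in double knockout libraries 1 to 3. The ranges of the groups overlapped almost whole, and replicate 1 was the highest library in each. The log2 fold change was -0.001 (standard error 0.379), at an edgeR adjusted p of 0.9998 and a 95% interval of -0.87 to 0.87, which includes a fall of the size seen for Sst but not that of Tac1. The difference between Pdyn and the other 2 striatal peptides was not tested.

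Markers of the same cell types were measured beside these genes. The share called over all tested genes was 2.68%. Of 16 striatal projection neuron markers, 11 were called lower and 1 (Isl1) higher, and 15 had a log2 fold change below 0. The summed level was 1829 to 1846 CPM in the wild type against 1212 to 1364 CPM. Bcl11b and Meis2 averaged 779.4 and 564.9 CPM in the wild type and 536.9 and 413.9 CPM in the double knockout. Much of this sum and of its fall is therefore that of these 2 genes. Of 14 cortical interneuron markers, 8 were called lower and 2 higher (Nkx2-1 and Prox1), and 12 lay below 0. Their summed levels were 1615 to 1702 against 1286 to 1353 CPM. Of 9 pan-neuronal markers, 2 were called lower and none higher, all 9 lay below 0, 6 had an unadjusted p under 0.05, and their summed levels were 6125 to 6640 against 5011 to 5769 CPM. Of 9 cortical excitatory neuron markers, 1 was called lower and none higher, 8 lay below 0 and 8 had an unadjusted p under 0.05, with summed levels of 983.4 to 998.4 CPM in the wild type against 772.3 to 794 CPM. Of 13 ganglionic eminence and GABAergic markers, 7 were called lower, among them the deleted genes, and 3 higher. Their summed levels were 2166 to 2272 against 1225 to 1424 CPM. Dlx1 and Dlx2 averaged 438.9 and 295.7 CPM in the wild type and 81.6 and 8.68 CPM in the double knockout. Much of the fall in this sum is therefore that of the deleted genes themselves. The part of these shifts in the peptide values was not tested. Markers of blood, endothelium, microglia and meninges gave no calls in edgeR (0 of 9, 0 of 6, 0 of 8 and 0 of 6), none had an unadjusted p under 0.05, and their summed levels overlapped between the groups.

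The striatal peptides were then set against their usual companions within a library, as ratios of reads per kilobase of exon. The ratio of Tac1 to Drd1, the dopamine receptor of direct-pathway neurons, was 4.68, 6.17 and 4.32 in wild-type libraries 1 to 3 and 6.22, 5.75 and 3.88 in the double knockout. The ratio of Penk to Drd2, the receptor of indirect-pathway neurons, was 0.961, 0.911 and 0.7596 in the wild type and 0.787, 1.03 and 0.506 in the double knockout. Both ratios overlapped between the groups, as did those of Tac1 and Penk to the striatal factor gene Ebf1 and to Gad1, the gene of a GABA-synthesising enzyme. Gad1 itself fell, from 119.6 ± 5.01 to 43.07 ± 2.39 CPM (SD, n = 3 each), to 36.01% of the wild-type mean. It is the denominator of the next Sst and Npy ratios. The ratio of Sst to Gad1 was 5.06, 5.701 and 5.05 in the wild type and 9.41, 12.2 and 7.93 in the double knockout, without overlap. The ratio of Npy to Gad1 went from 1.74, 1.84 and 1.697 in the wild type to 7.02, 8.99 and 9.42, also without overlap. The ratio of Sst to Lhx6, the factor gene of medial eminence interneurons, overlapped, at 2.23, 2.39 and 2.29 in the wild type against 2.95, 4.09 and 1.78. That of Npy to Lhx6 did not overlap, at 0.766, 0.7698 and 0.771 in the wild type against 2.2, 3.02 and 2.11. Lhx6 itself fell, to 56.15% of the wild-type mean. In the same interneuron marker list Nkx2-1 was at 150.7% and Sox6 at 97.41% of their wild-type means. Ratios to these 2 genes were not computed, so the Npy to Lhx6 ratio holds for that denominator only. Over the 11 ratios computed, the exact two-sided permutation test on log2 ratios gave at best 0.1, the smallest p that 3 against 3 samples allow (0.275 after Benjamini-Hochberg adjustment), so none can be called.

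Of the 4 hypothalamic peptides, Gal, Trh and Cartpt were low, averaging under 1 CPM, while Nts was higher and varied between the double knockout libraries. Nts encodes neurotensin. Nts was at 5.96, 4.29 and 5.11 CPM in wild-type libraries 1 to 3 and at 7.75, 4.16 and 1.96 CPM in double knockout libraries 1 to 3. The double knockout libraries reached both above and below the wild type, and the log2 fold change was -0.15 (standard error 0.402) at an edgeR adjusted p of 0.929 and a 95% interval of -1.07 to 0.77. Without double knockout replicate 3 it turned to 0.23, at an edgeR adjusted p of 0.761.

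Gal encodes galanin. Gal was at 0.802, 0.576 and 0.53 CPM in wild-type libraries 1 to 3 and at 0.57, 0.538 and 0.159 CPM in double knockout libraries 1 to 3. Its double knockout replicate 3 held 11 reads, fewer than any other library, and the other 2 lay within the wild-type range. The log2 fold change was -0.599 (standard error 0.439), at an edgeR adjusted p of 0.657, and -0.19 without that library. Trh encodes the precursor of thyrotropin-releasing hormone. Trh was at 0.649, 0.233 and 0.312 CPM in wild-type libraries 1 to 3 and at 0.986, 0.5897 and 0.4902 CPM in double knockout libraries 1 to 3. Only double knockout replicate 1 exceeded every wild-type library, and replicate 1 was highest in each group. The log2 fold change was 0.799 (standard error 0.431), at an edgeR adjusted p of 0.498 and a 95% interval of -0.18 to 1.78. It ranged from 0.45 to 1.33 when single libraries were left out, lowest without double knockout replicate 1 and highest without wild-type replicate 1.

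Cartpt, the precursor gene of CART peptides, had the fewest reads, 17, 6 and 16 in the wild type and 14, 8 and 11 in the double knockout. These counts overlapped, and the log2 fold change was -0.29 (standard error 0.481), at an edgeR adjusted p of 0.879 and a 95% interval of -1.39 to 0.81. The interval does not exclude a 2-fold fall. Among 13 hypothalamic markers, 3 of the 8 that could be tested were called higher and none lower, and all 8 lay above 0. The called ones were led by Otp at 9.44 against 118.4 CPM. The 5 markers that could not be tested, among them Rax and Nkx2-4, had 0 to 16 reads per library. The summed marker level was 68.3 to 84.5 CPM in the wild type and 174.7 to 238 CPM in the double knockout. Otp alone held 5.27 to 11.96 CPM of it in the wild type and 112.9 to 121.3 CPM in the double knockout. Sim1, Fezf1 and Lhx9 had their lowest level of all 6 libraries in double knockout replicate 3. The separation of the sums thus rests largely on Otp and does not show a rise of the whole list in every library. The summed level of the 4 hypothalamic peptides overlapped, at 5.196 to 7.697 and 2.77 to 9.52 CPM.

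**Figure D2:**
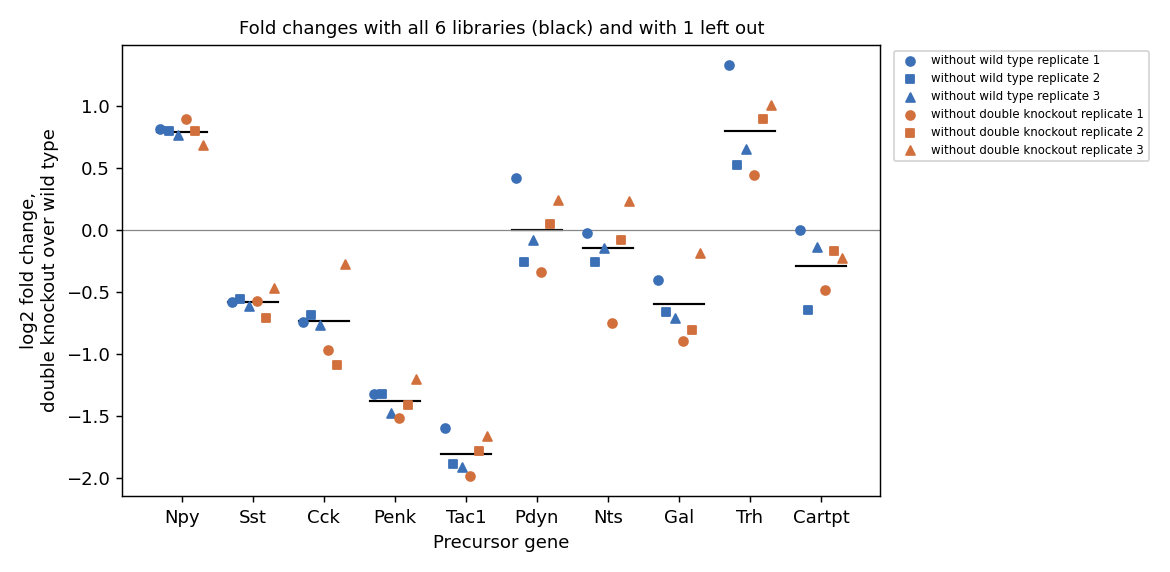
The log2 fold change (double knockout over wild type, vertical axis) of each precursor gene with all 6 libraries (black line) and with each single library left out (blue, a wild-type library; orange, a double knockout library). Npy, Sst, Penk and Tac1 keep their direction in every fit, Cck moves from -0.73 to -0.27 without double knockout replicate 3, and Pdyn, Nts and Cartpt reach or cross 0.

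Levels were compared between genes per kilobase of exon, as RPKM from the TMM-normalised CPM and GENCODE M21 exon lengths. In the wild type the order was Sst at 82.4 ± 3.497 RPKM, Npy at 27.5 ± 1.004, Cck at 5.73 ± 0.342, Nts at 4.103 ± 0.666, Tac1 at 3.08 ± 0.7297, Penk at 1.08 ± 0.139, Gal at 0.807 ± 0.185, Pdyn at 0.395 ± 0.182, Trh at 0.288 ± 0.159 and Cartpt at 0.165 ± 0.0813 (mean ± SD, n = 3). Neighbours overlapped in range from Nts to Tac1, from Penk to Gal, and between Pdyn, Trh and Cartpt. In the double knockout the order was Sst at 55.01 ± 8.94 RPKM, Npy at 47.7 ± 7.23, Nts at 3.71 ± 2.34, Cck at 3.46 ± 2.21, Tac1 at 0.881 ± 0.189, Gal at 0.536 ± 0.2903, Trh at 0.498 ± 0.1895, Penk at 0.414 ± 0.0882, Pdyn at 0.394 ± 0.1495 and Cartpt at 0.134 ± 0.0313. There the RPKM ranges of Sst and Npy overlapped, which they did not in the wild type, and neighbours overlapped from Nts down to Pdyn. In CPM, without exon lengths, Npy at 23 to 31.18 and Sst at 33.42 to 46.29 did not overlap in the double knockout.

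Sst and Npy made up most of the summed RPKM of the 10 genes in every library. The share of Sst was 64.1, 66.97 and 65.8% in wild-type libraries 1 to 3 and 49.7, 52.3 and 43.8% in the double knockout. The share of Npy was 22.1, 21.6 and 22.1% in the wild type against 37.1, 38.6 and 52.02%. In double knockout replicate 3 Npy exceeded Sst per kilobase of exon, and in no other library. By reads alone Sst stayed above Npy there, at 2318 against 2163, so the crossing rests on the exon lengths used. The ratio of Npy to Sst was 0.344, 0.323 and 0.336 in the wild type and 0.746, 0.739 and 1.19 in the double knockout, a difference of 1.38 in mean log2 ratio, higher in 3 of 3 libraries (exact two-sided permutation p = 0.1, the smallest possible).

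**Figure D3:**
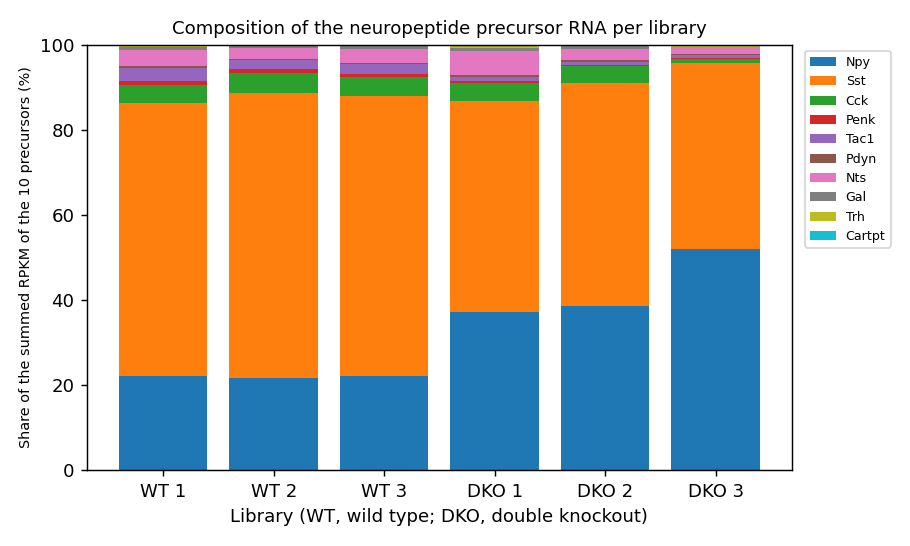
Share of each precursor in the summed RPKM of the 10 genes (vertical axis, percent) for each library, as stacked bars. Npy takes a larger and Sst a smaller share in every double knockout (DKO) library than in any wild-type (WT) library, and the Tac1 band is thinner.

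Receptor genes for the peptides were examined next, as the receiving side of the same signals. Of 24 receptor genes, 18 could be tested and 7 were called, 4 lower and 3 higher, with a median log2 fold change of -0.56 (all tested genes -0.002, with 2.68% called). Tacr2 had no read in any library. Oprm1, the mu opioid receptor gene, fell from 3.54 ± 0.857 CPM to 0.705 ± 0.227 CPM (SD, n = 3 each), a log2 fold change of -2.33 (standard error 0.2796) at an edgeR adjusted p of 0.00331. Exons of Ipcef1 overlap 96 of the 8037 exon bases of Oprm1 on the opposite strand, so the Oprm1 count is uncertain if counting ignored strand. Oprk1, the kappa receptor gene, fell from 0.906 ± 0.101 CPM to 0.256 ± 0.0347 CPM, at an edgeR adjusted p of 0.00719. Penk and Oprm1 were thus both lower, while Oprk1 was lower and the Pdyn groups overlapped.

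Npy2r, a presynaptic receptor gene for neuropeptide Y, went the other way from Npy. Npy2r was at 6.01, 4.26 and 4.43 CPM in wild-type libraries 1 to 3 and at 1.02, 1.35 and 1.47 CPM in double knockout libraries 1 to 3, a log2 fold change of -1.93 (standard error 0.199) at an edgeR adjusted p of 0.00146. Tacr1, the gene of the substance P receptor, went the other way from Tac1. Tacr1 was at 5.36, 4.96 and 4.86 CPM in wild-type libraries 1 to 3 and at 10.1, 10.3 and 10.7 CPM in double knockout libraries 1 to 3, so that the double knockout was at 204.6% of the wild type, a log2 fold change of 1.03 (standard error 0.0935) at an edgeR adjusted p of 8.21e-04. Sstr2, the most abundant receptor gene of the list by reads, fell with Sst, from 27.4 ± 1.02 CPM to 19.6 ± 1.75 CPM, a log2 fold change of -0.48 (standard error 0.0825) at an edgeR adjusted p of 0.0191. The Sstr2 call was lost in 4 of the 6 fits without a library, those without wild-type replicate 1 or 2 and without double knockout replicate 1 or 2, with edgeR adjusted p of 0.0523 to 0.0896.

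Of the 18 tested receptor genes, 15 had a log2 fold change below 0. The low receptor genes Ntsr2 and Cckar rose. Ntsr2, for neurotensin, had 16, 9 and 9 reads in the wild type and 50, 51 and 69 in the double knockout, a log2 fold change of 2.26 (standard error 0.325) at an edgeR adjusted p of 0.00843. Ntsr1, the more counted neurotensin receptor gene, was at 11.2, 8.09 and 8.11 CPM in the wild type and at 5.39, 4.53 and 2.65 CPM in the double knockout. These did not overlap, but the log2 fold change of -1.12 did not pass the test (edgeR adjusted p 0.0556). The galanin receptor gene Galr1 had a log2 fold change of -1.67, which did not pass either (edgeR adjusted p 0.0599). Cckar, for cholecystokinin, had 32, 45 and 38 reads in the wild type and 68, 72 and 97 in the double knockout, and its edgeR adjusted p of 0.0497 was 0.0768 with the replicate block and 0.111 without double knockout replicate 3. It was lost in all 6 fits without a library. Oprk1, Ntsr2 and Cckar, with means under 1 CPM, and the uncalled Ntsr1 and Galr1 were named after their values were seen.

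**Figure D4:**
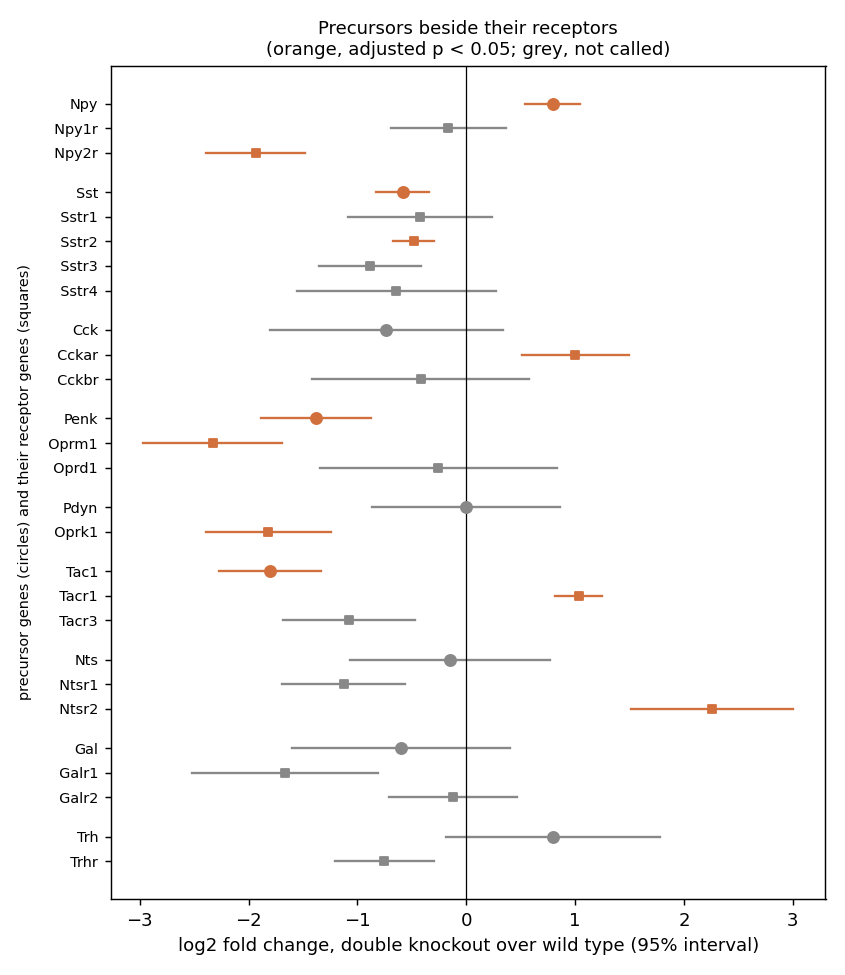
Log2 fold change (double knockout over wild type, horizontal axis) with its 95% interval for precursor genes (circles) and the tested genes of their receptors (squares), grouped by peptide and in orange where the adjusted p was under 0.05. Penk and Oprm1, and Sst and Sstr2, lie on the same side of 0, while Npy and Npy2r, and Tac1 and Tacr1, lie on opposite sides; the intervals are not adjusted, so some grey ones exclude 0.

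Of 17 genes for peptide processing and granules, all of which could be tested, 1 was called. Cpe rose from 253.2 ± 8.43 CPM to 307.2 ± 13.1 CPM (SD, n = 3 each), a log2 fold change of 0.28 (standard error 0.0542) at an edgeR adjusted p of 0.03302, and had the highest count level of the list. The call was lost in 5 of the 6 fits without a library (all but that without double knockout replicate 3) and with the Y-linked covariate, at an edgeR adjusted p of up to 0.135. Scg3, a granule protein gene and the next most counted, was at 159.7 ± 4.098 CPM and 146.3 ± 6.502 CPM, at an edgeR adjusted p of 0.308. The list's median log2 fold change was -0.025, and its summed levels overlapped between groups, at 958.7 to 1022 and 957.9 to 1036 CPM.

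Of 42 other neuropeptide precursor genes, 19 had enough reads to be tested and none was called in edgeR, with 2 at an unadjusted p under 0.05. DESeq2 and limma-voom called none either. Their median log2 fold change was 0.0018. The most counted were Pnoc, the nociceptin precursor gene, at 5.83 ± 0.825 CPM and 5.77 ± 0.435 CPM, with a 95% interval of its log2 fold change of -0.31 to 0.28, and Adcyap1, the PACAP precursor gene, at 3.45 ± 0.4603 CPM and 3.99 ± 0.807 CPM, with an interval of -0.21 to 0.62. Of the other 23 genes, 4 had no read in any library.

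For each called member, the genes with the most alike profile over the 6 libraries were listed by Pearson's r of log2 CPM among 16480 genes, as a description. The 3 closest were Rarb (r = 0.999), Prkcd (r = 0.998) and Kctd12 (r = 0.997) for Tac1, Sema3c (r = 0.998), Mgat5 (r = 0.997) and Lrfn4 (r = 0.997) for Penk, Mapk10 (r = 0.99), Col4a4 (r = 0.99) and Cdk14 (r = 0.99) for Sst and Mfsd14a (r = 0.995), Dmrtb1 (r = 0.99) and Cgrrf1 (r = 0.99) for Npy. Rarb, a retinoic acid receptor gene of the striatum, had a log2 fold change of -1.73, close in size to that of Tac1. Other close genes differed more in size from their member. Mfsd14a was at 0.107 against 0.79 for Npy, Mgat5 and Lrfn4 at -0.227 and -0.139 against -1.38 for Penk. Col4a4 was at -1.094 against -0.58 for Sst. A high r thus does not mean a like fold change. Exons of Top2b and Gm48162 overlap Rarb on the opposite strand, so the Rarb count is uncertain if counting ignored strand. With 6 libraries, 472 to 770 genes had an r above 0.9 with each of these members.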

How the data were processed

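Total RNA libraries depleted of ribosomal RNA with a stranded kit were sequenced, per the labels' protocols. The authors deposited 1 table of read counts per gene, in whole numbers, not normalised and not pooled, with 6 library columns. The submitters' processing notes name featureCounts and GRCm39; the aligner, annotation and strand setting are not given in the sources used here. All library columns were used, and 1492 of 55416 rows have no symbol. Total RNA includes unspliced transcripts, and a count does not tell them from messenger RNA where they fall on exons.

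Genes were filtered with filterByExpr (minimum count 10, minimum total 15), which left 23628, scaled by TMM and tested with the quasi-likelihood test in edgeR 4.0.16 under R 4.3.3, without covariates, with Benjamini-Hochberg adjustment and a prior count of 0.125. SE is the log2 fold change divided by the root of F. Exon lengths and overlaps came from GENCODE M21 (GRCm38), not known to be the authors' annotation, so RPKM is approximate. Replicates with identical counts were not found. Alternatives were other scalings, DESeq2 1.42.0, limma-voom 3.58.1, other filters, a replicate block, a Y-linked covariate, a stricter threshold and leaving out each library.

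The members, lists and rules were chosen with earlier results of these data known. Named genes were the members, in each list up to 6 called genes averaging at least 1 CPM and having the largest changes, and the 2 most counted.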

Additional observations from a re-analysis of the deposited data

How the results depend on the processing

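Of the 10 precursors, 4 were called with every other scaling, filter and test at the same threshold, with the covariate 3, and 2 to 4 without single libraries, the lowest without wild-type replicate 1 or 2. At an adjusted p under 0.01, 2 were called (Npy and Tac1). All genes called numbered 1168 with DESeq2, 358 with the Y-linked covariate, 275 at the stricter threshold and 309 to 749 without single libraries, against 634. Total count scaling gave 390 higher and 256 lower, against 317 and 317. Receptor genes called numbered 11 with DESeq2, 4 with a minimum mean of 1 CPM (which leaves 8 to test), and 5 to 8 without single libraries, against 7. Processing genes called numbered 4 with DESeq2, 2 with total count scaling, without a filter or with the 1 CPM filter, 0 with the covariate or at the stricter threshold, and 0 to 2 without single libraries, against 1. The count of other precursors called was 0 in each of the 15 settings. The cause was not tested. Pdyn, at -0.001, changed sign to 0.005 with DESeq2 size factors, 0.03 with total counts, 0.003 with DESeq2, 0.033 with limma-voom, 0.01 without a filter, 0.013 with the 1 CPM filter and 0.014 with the replicate block, and ranged from -0.34 to 0.42 without single libraries. Nts ranged from -0.75 to 0.23 and Cartpt from -0.65 to 0 there. Same-numbered libraries correlated in their deviations at 0.256, 0.0835 and 0.132 over 16482 genes, against -0.239 to 0.0984 for differently numbered ones. Each double knockout library correlated best with the wild-type library of its number, while wild-type replicate 2 correlated best with double knockout replicate 3. The labels do not state a pairing, so the main fit did not pair the samples and the replicate block was run beside it. With the replicate block, 4 precursors, 7 receptor genes, 1 processing gene and 690 genes in all were called, and the log2 fold changes of Npy, Sst, Penk and Tac1 were 0.78, -0.595, -1.39 and -1.803. Gal, Trh and Cartpt rest on fewer than 65 reads in each library, and what this depth limits was not tested.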

Other observations

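Of the 10 precursors, 6 (Sst, Penk, Tac1, Cck, Nts and Gal) had their lowest level of all libraries in double knockout replicate 3. Relative to the mean of the other libraries of its group, Cck, Nts and Gal were at -2.35, -1.603 and -1.804 on the log2 scale, and Npy was at 0.32. Among the markers, Sim1, Fezf1 and Nr2f2 were at -2.67, -2.03 and -1.59 in the same library, Otp at 0.05, Prox1 at 0.307 and Lhx6 at 0.61. The gene with the profile most alike to Cck was Kcnf1, a potassium channel subunit gene (r = 0.996 over 6 libraries), which was at 6.26 CPM there and at 12.1 to 12.99 CPM in the other 5. These genes were singled out after their values were seen.

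Replicate 1 was the highest library of its group for Pdyn, Trh, Gal, Nts, Tac1, Penk and Cartpt in both genotypes. Replicate 1 of the wild type carried Y-linked transcripts and that of the double knockout did not.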
